A study of Pimephales promelas with 32 samples.

Results

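The most counted transcripts of the fathead minnow larva (Pimephales promelas, a small freshwater fish used in toxicity testing) were described across 2 chemicals and their control. A gene model was a member when its mean raw count over all 32 larvae was 10000 or more and its annotation cell did not contain the enzyme class EC:3.1.26.4, ribonuclease H. This rule chose 164 of the 26150 gene models in the table, which is 0.627% of them, and left out 2 models of that enzyme class. Because the rule used the counts themselves, the abundance of the members is a description and carries no test. RNA-seq had been done on whole single larvae, of which 10 had spent 48 h in bifenthrin, a pyrethroid insecticide, at 3.2 µg/L, 11 with copper sulfate at 40 µg/L and 11 as controls. All 3 groups carried 0.002% DMSO in 100 mL of water per beaker at 25 °C. The treatment protocol in the labels describes larvae of 96 h after hatching and the age label 48 h after hatching, and the sources used here do not resolve the difference. Larvae were held 10 to a beaker in 5 beakers per treatment, and 3 were taken per beaker. With 10 or 11 larvae from 5 beakers, some larvae of each group shared a beaker. The labels do not say which, so p-values are too small if beaker mates were alike. The libraries held between 10655113 and 17993699 counts, and were sequenced in lanes 6 and 7 with 5 or 6 larvae of each group in each lane.

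A small part of an animal's genes commonly supplies a large part of its messenger RNA. In fish larvae these are known to include genes for contractile and calcium-binding proteins of muscle, ribosomal proteins and translation factors, enzymes of energy metabolism, secreted proteins of liver and gut, and structural proteins of skin and eye. Pyrethroids keep the sodium channels of nerve cells open, and dissolved copper disturbs sodium uptake at the gill and the balance of oxidants. The table gives a model number and, for most models, UniProt accessions, but it does not pair them with gene names or products. None of the model numbers or accessions matched the reference table of 64593 genes of this species (0 matches for either), so no gene name or role is assigned to any member below. The 12 lists drawn up for pathways of muscle, energy metabolism, translation, digestion and defence rested on enzyme classes or product names, and 0 of them had a model in the table, so no count by pathway is given.

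An accession was listed for 158 of the 164 members, and 6 members had none. Models without annotation thus made up 3.66% of the members, against 15.8% of the whole table. The members carried 147 distinct annotation entries. Of these entries, 122 stood on a single model of the table and 9 stood on 2 or 3 members each, 20 members in all. Annotation entries with more than 1 accession, at most 4, occurred on 9 members. What several accessions in 1 entry stand for is not stated, and whether such members share reads with similar genes was not tested. Members with the same entry could share reads if their sequences are alike, and how the authors counted such reads is not given in the sources used here. Some members also had consecutive model numbers, in 5 runs that held 13 members. The longest run was FMg006913 to FMg006916, with entry Q6IQX1 on 3 of the 4 models and A2BGX6 on the other. What the order of model numbers stands for is not stated, so the runs say nothing here about position in the genome.

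Together the 164 members took more than 30% of all counts in every larva. Their summed share was 35.7 ± 1.14% in bifenthrin larvae (SD over 10 larvae), with a range of 33.8% to 36.9%. It was 36.4 ± 1.77% in copper sulfate larvae (SD over 11 larvae), with a range of 34.2% to 39.8%, and 34.9 ± 2.08% in control larvae (SD over 11 larvae), with a range of 31.3% to 38.8%. The ranges of the 3 groups overlapped, and the group means lay within 1 SD of each other. Counts are not divided by transcript length, so a share of counts is not a share of molecules, and the order of the members is an order of counts. In RNA from whole larvae, fewer cells of a type and less RNA per cell cannot be told apart.

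**Figure D1:**
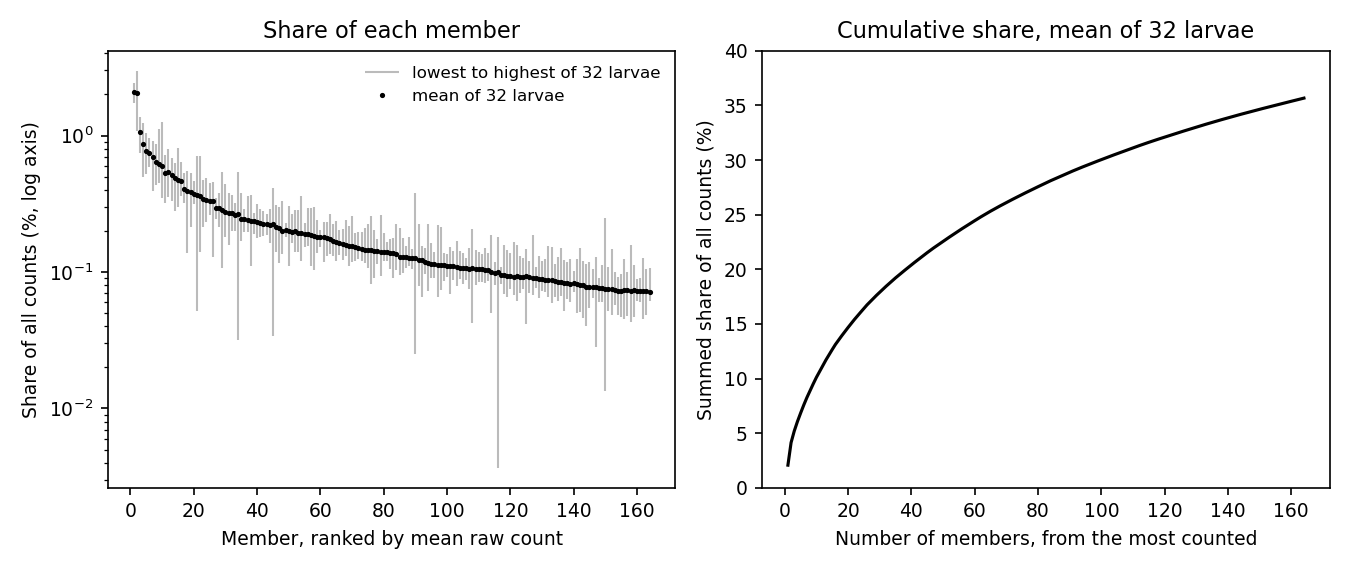
Left, the share of all counts of each of the 164 members (percent, log axis) against its rank by mean raw count, with points for the mean and lines from the lowest to the highest of 32 larvae. Right, the summed share (percent) as members are added in that order; the 10 most counted members reach 10.1% and all 164 reach 35.7%.

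**Figure D2:**
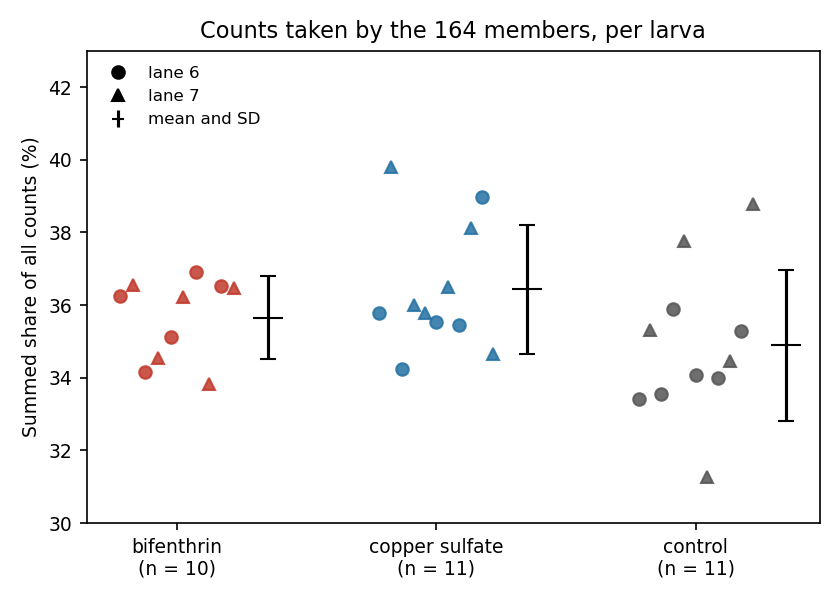
Summed share of all counts (percent) taken by the 164 members in each larva, by group, with circles for lane 6, triangles for lane 7 and bars for the mean and SD. The axis starts at 30%; bifenthrin larvae lie between 33.8% and 36.9%, copper sulfate larvae between 34.2% and 39.8% and controls between 31.3% and 38.8%.

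The plot of share by rank shows how unevenly the counts were spread. The 10 most counted members held 10.6 ± 0.63% of all counts in bifenthrin larvae (SD over 10 larvae), 10.1 ± 0.77% in copper sulfate larvae (SD over 11 larvae) and 9.67 ± 0.95% in control larvae (SD over 11 larvae). The first 30 members supplied 50% of the counts of all 164. At the other end, the 3 members just inside the rule were FMg015568, FMg008000 and FMg022079, with mean counts of 10132, 10021 and 10011. The 3 models just outside it were FMg016423, FMg017058 and FMg020484, with mean counts of 9998, 9973 and 9972. The limit therefore runs through a continuous range of abundance, and 62 members fell under 10000 counts in at least 1 larva, while 102 stayed at or above it in all 32.

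Leading the ranking, FMg003659 (entry Q7ZT36) and FMg010204 (entry Q9I8V1) each averaged 2.07% of all counts. Their spread between larvae differed. FMg003659 ranged from 1.72% to 2.43% over the 32 larvae, and FMg010204 from 1.09% to 2.99%. The third and the sixth places went to models with the same entry as the first, FMg014931 at 1.06% and FMg014930 at 0.742%. The remaining members of the first 10 were FMg006916 (Q6IQX1) at 0.863%, FMg012525 (B3DFP9) at 0.774%, FMg016319 (A0A2R8RK22) at 0.691%, FMg018274 (A2BHA3) at 0.636%, FMg021716 (Q7ZVK9) at 0.616% and FMg023450 (Q5TZ29) at 0.594%.

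Bifenthrin larvae were then compared with controls, to ask which of these abundant transcripts the insecticide altered. Of the 164 members, 27 rose and 24 fell with bifenthrin, which is 31.1% of them (edgeR quasi-likelihood test, Benjamini-Hochberg adjusted p under 0.05 over all 21174 genes tested). Among all genes tested 38.2% were called, 18% higher and 20.2% lower. Members were thus called at a share below that of all genes. They were called at a lower share than the models just under the rule too, since 48% of the 150 models with a mean count of 5000 to 10000 and 51.2% of the 1878 models between 1000 and 5000 were called. Changes were small: the median absolute log2 fold change was 0.17 over the members and 0.24 over all genes tested. With the sign kept, the median log2 fold change was -0.07 over the members and -0.01 over all genes tested. The median size of a called change was 0.37 in members and 0.49 in all genes. In the bands of 5000 to 10000 and 1000 to 5000 counts this size was 0.34 and 0.40, so members did not stand out from the bands below them. More than 2-fold differences were found for 2 members, FMg007929 and FMg007908, both higher. Both averaged under 10000 counts in controls (8119 and 8889), so the rule favoured their rise. With libraries scaled by their totals alone, a scaling that placed the median of all genes at -0.08, the same test called 25 members higher and 56 lower, so the balance of directions depended on the scaling. Without control replicate 14, a larva with a high summed share of members, 15 members were called lower in place of 24.

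The rule itself bears on the direction of these counts. A mean over all larvae admits models that were higher in a treated group, and 10 members had a mean count under 10000 in controls taken alone. Of these 10, 6 were called higher with bifenthrin and 3 with copper sulfate, and 0 were called lower for either chemical. Those 6 were FMg005811, FMg007908, FMg007929, FMg016824, FMg018326 and FMg022428, and the 3 were FMg006152, FMg016824 and FMg018326. Each of them reached the limit through larvae of an exposed group. The rule thus favoured a rise, and the fold changes and p-values given for them are a description. The rule could favour a fall too. A mean of 10000 or more was reached by 148 members in bifenthrin larvae alone and by 160 in copper sulfate larvae alone. The others reached the limit through larvae of the other groups, and their fold changes and p-values are likewise a description. For those at the limit or above in controls, the rule favoured a fall in that chemical. With bifenthrin these included FMg004873, FMg010855, FMg015568 and FMg020114, all called lower. They were not the only ones, since FMg002830 and FMg019633, for example, averaged 8058.5 and 8278 counts in bifenthrin larvae. All 24 members called lower with bifenthrin averaged 10000 or more in controls. The rule favoured the fall of any of them under 10000 in bifenthrin larvae, so the number of falls is a description too. FMg005811 and FMg007908 for copper sulfate, and FMg006152 for bifenthrin, were under the limit in controls too. They reached it through the other chemical, so the rule favoured no fall against control. Members were also chosen by the mean of the controls alone, again 164 models of which 154 were shared. Of these, 21 were called higher and 29 lower with bifenthrin, and 17 higher and 2 lower with copper sulfate. In bifenthrin against copper sulfate larvae, 5 were called higher and 29 lower. This choice used the control counts that both chemicals are compared with. It can therefore favour a fall against control, and its counts are a description too.

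FMg007929 (entry Q7ZVP4) differed most between bifenthrin and control larvae. Its lowest, median and highest values were 1378, 2408 and 3888 CPM with bifenthrin, 503, 743 and 1149.8 CPM with copper sulfate and 233, 549 and 1061 CPM in controls, where CPM is the count scaled to library size by TMM (trimmed mean of M values). Every ± beside a log2 fold change is its SE. All 10 bifenthrin larvae stood above all 11 controls and all 11 copper sulfate larvae. Its log2 fold change was 2.22 ± 0.21 for bifenthrin against control (edgeR adjusted p = 3.70e-10), a 4.66-fold difference, and was 2.07 in lane 6 alone and 2.39 in lane 7 alone. The model took 0.256 ± 0.0789% of all counts in bifenthrin larvae (SD over 10 larvae) and 0.0586 ± 0.0247% in controls (SD over 11 larvae). In controls alone its mean raw count was 8119, under the limit of the rule, so it is a member through its level in exposed larvae.

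FMg005811 (entry Q6NWF6) rose with less spread. It had 789, 1103 and 1264 CPM with bifenthrin, 494, 682 and 754 CPM with copper sulfate and 436, 538 and 639.6 CPM in controls (lowest, median and highest). The bifenthrin larvae again lay above every larva of both other groups, and the log2 fold change against control was 0.95 ± 0.089 (edgeR adjusted p = 2.79e-10), and was 1.06 in lane 6 alone and 0.84 in lane 7 alone. This model too had a mean count under 10000 in controls alone, at 7935.

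FMg007908 (entry Q6IQR3) had the second largest change and a wide spread between larvae. Its mean count was 8889 in controls and reached 10000 in bifenthrin larvae alone, so it is a member through that group. It had 376, 1125 and 2537 CPM with bifenthrin, 133, 480.4 and 898 CPM with copper sulfate and 159, 511 and 1110.5 CPM in controls, so that the groups overlapped and 5 of the 10 bifenthrin larvae exceeded the highest control. Its log2 fold change of 1.09 ± 0.36 (edgeR adjusted p = 0.0160) came to 1.34 among lane 6 larvae and 0.85 among lane 7 larvae, where it was not called (edgeR adjusted p = 0.285). The call was also lost with a replicate block in place of lane. FMg018326 (Q32LQ4, 0.89 ± 0.16) and FMg004109 (Q5TZ29, 0.72 ± 0.17) completed the 5 members with the largest rise (log2 fold change ± SE, edgeR adjusted p = 3.93e-05 and 8.62e-04). Neither was called in lane 7 alone. Both were also called in copper sulfate larvae and are described there.

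Besides FMg007929 and FMg005811, the ranges of bifenthrin and control larvae were apart for FMg008230 and FMg008795 among the members that rose. That makes 4 members whose bifenthrin larvae all lay above the controls, 2.44% of the members, against 3.1% of all genes tested. FMg007929 and FMg005811 are members through exposed larvae, so the rule favoured their place in this count and the share is a description. FMg008230 (entry Q6NX10) had 1895, 2044 and 2234 CPM with bifenthrin and 939.6, 1323 and 1875 CPM in controls, with a log2 fold change of 0.57 ± 0.10 (edgeR adjusted p = 3.93e-05) that was not called in lane 7 alone. FMg008795 (entry Q5U3V7) had 2572, 2693 and 3341 CPM with bifenthrin and 1819, 2429 and 2524 CPM in controls, with a log2 fold change of 0.29 ± 0.084 (edgeR adjusted p = 0.00578) that was not called in either lane alone.

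Among the members that fell, FMg010855 (entry Q6NV32) fell most. Its mean count was 7252 in bifenthrin larvae, under the limit, so it is a member through the other groups and its values are a description. It had 415, 512 and 759.5 CPM with bifenthrin, 630.1, 839 and 1128 CPM with copper sulfate and 746, 942 and 1118 CPM in controls, and 9 of the 10 bifenthrin larvae were below the lowest control. The log2 fold change against control was -0.77 ± 0.094 (edgeR adjusted p = 4.95e-08), and was -0.68 in lane 6 alone and -0.86 in lane 7 alone. FMg004873 (entry P79735 and Q6GTE7) was the 1 member whose bifenthrin larvae all lay below the controls, at 620.1, 693 and 791 CPM with bifenthrin and 799, 972 and 1366 CPM in controls. That is 0.61% of the members, against 3.24% of all genes tested. Its log2 fold change was -0.49 ± 0.084 (edgeR adjusted p = 1.68e-05). Falls were also found for FMg005413 (-0.62 ± 0.12), FMg015568 (-0.44 ± 0.11) and FMg020114 (-0.40 ± 0.13), with edgeR adjusted p of 1.32e-04, 0.00247 and 0.0114. FMg015568 was not called in lane 6 alone and FMg020114 in neither lane alone. In bifenthrin larvae alone FMg004873, FMg015568 and FMg020114 averaged 9378, 7826.5 and 8360 counts. They too are members through the other groups, so their values are likewise a description.

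**Figure D3:**
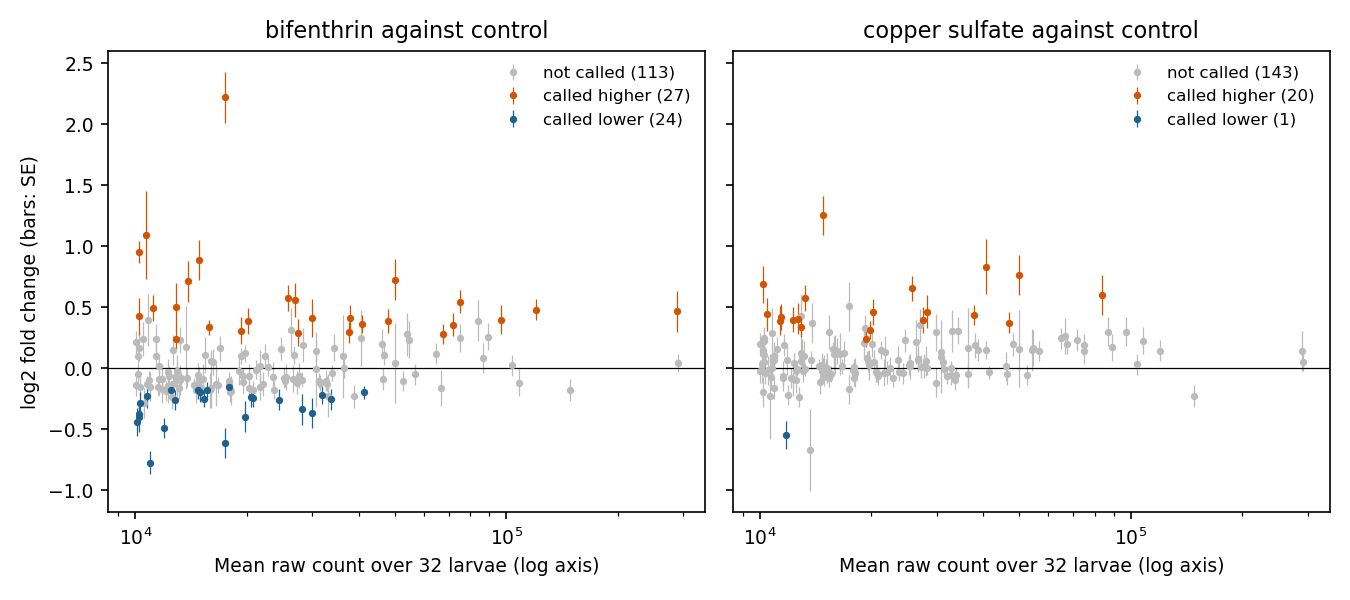
Log2 fold change of each of the 164 members against control, with its SE, plotted over the mean raw count (log axis), for bifenthrin on the left and copper sulfate on the right. Orange marks members called higher (27 and 20), blue members called lower (24 and 1) and grey members that were not called (113 and 143).

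**Figure D4:**
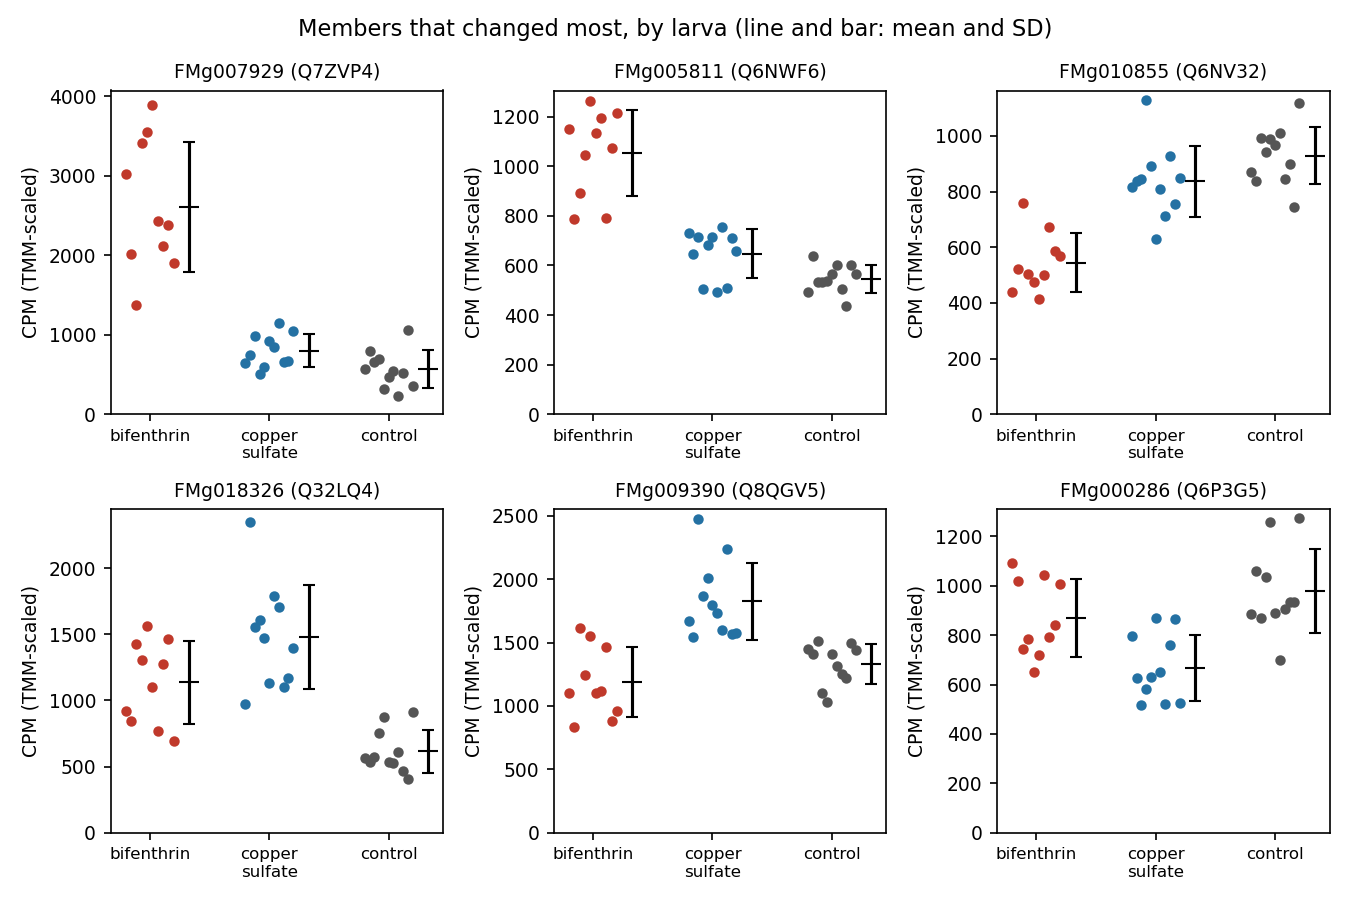
TMM-scaled CPM of 6 members in each larva, in bifenthrin, copper sulfate and control groups, with bars for the mean and SD; each panel has its own axis from 0. In the upper row the bifenthrin larvae stand apart from controls for FMg007929 and FMg005811 and overlap them in 1 larva for FMg010855; in the lower row the copper sulfate larvae all lie above controls for FMg018326 and FMg009390 and overlap them for FMg000286.

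As the plot of fold change over mean count shows, the 3 members of the first 10 that changed in bifenthrin larvae all rose. FMg010204 had 16648, 26324 and 28004 CPM with bifenthrin and 9885, 16785 and 26811 CPM in controls. The groups overlapped widely and 4 bifenthrin larvae exceeded the highest control. The log2 fold change was 0.46 ± 0.17 (edgeR adjusted p = 0.0271), which was not called in either lane alone or with a replicate block in place of lane. FMg006916 had 8192, 10676 and 12831 CPM with bifenthrin and 5187, 7581 and 8572 CPM in controls, 8 of 10 bifenthrin larvae lay above every control, and the log2 fold change was 0.48 ± 0.089 (edgeR adjusted p = 5.19e-05). FMg016319 had 5795, 7642 and 9538 CPM with bifenthrin and 3549, 6189 and 8529 CPM in controls and a log2 fold change of 0.40 ± 0.12 (edgeR adjusted p = 0.00882), which was not called in lane 7 alone. FMg003659, the most counted model, had 18397, 21154 and 22814 CPM with bifenthrin, 16504, 21368 and 25707 CPM with copper sulfate and 16431, 19516 and 25823 CPM in controls. Its log2 fold change was 0.042 ± 0.074 for bifenthrin and 0.050 ± 0.072 for copper sulfate against control (edgeR adjusted p = 0.690 and 0.790), and both were below 0 when totals alone set the scale. The third member, FMg014931, had log2 fold changes of -0.18 ± 0.092 and -0.23 ± 0.089 against the same controls (edgeR adjusted p = 0.127 and 0.135); with totals alone it was called lower in both. None of the remaining members of the first 10 except FMg023450 was called against control. FMg012525 had log2 fold changes of -0.12 ± 0.11 with bifenthrin and 0.22 ± 0.11 with copper sulfate, FMg018274 of 0.26 ± 0.11 and 0.17 ± 0.11, and FMg021716 of 0.081 ± 0.12 and 0.30 ± 0.12. FMg014930 stood at 0.025 ± 0.086 with bifenthrin and 0.031 ± 0.084 with copper sulfate, and its sign turned with totals alone.

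Counted as shares, the 27 members that rose took 10.1 ± 0.91% of all counts in bifenthrin larvae (SD over 10 larvae) and 7.54 ± 0.98% in controls (SD over 11 larvae). The 24 that fell took 2.75 ± 0.14% in bifenthrin larvae (SD over 10 larvae) and 3.52 ± 0.30% in controls (SD over 11 larvae). These sums follow from the calls and are given as a description.

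Copper sulfate larvae were set against the same controls, to ask the same of a metal. Here 20 members were higher and 1 was lower, 12.8% of the members, against 5.58% of all genes tested, of which 3.58% were higher and 1.99% lower. Copper sulfate calls were frequent in the band below the rule too: of the 150 models with a mean count of 5000 to 10000, 22% were called higher and 1.33% lower. The median log2 fold change was 0.06 over the members and -0.01 over all genes, and 1 member differed by more than 2-fold. That member, FMg018326, averaged 9123 counts in controls, under the limit, so the rule favoured its rise. With totals alone as the scale, 18 members were called higher and 4 lower. The median log2 fold change was then -0.0021 over the members and -0.079 over all genes, so the members still lay above all genes. Within a lane fewer calls were made: lane 6 alone gave 10 higher and 0 lower members, and lane 7 alone gave 1 of each. For bifenthrin the lane 6 fit called 25 members higher and 5 lower, and the lane 7 fit 7 of each. The test of an interaction between lane and chemical called 0 members and 0 of all genes (edgeR), with 7 members for bifenthrin and 2 for copper sulfate at an unadjusted p under 0.05, which is 4.27% and 1.22% of the members, against 3.38% and 2.48% of all genes tested.

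FMg018326 (entry Q32LQ4) showed the largest change with copper sulfate. With a mean count of 9123 in controls, it is a member through its level in exposed larvae. It had 691, 1189 and 1561 CPM with bifenthrin, 971, 1474 and 2349.8 CPM with copper sulfate and 406, 567 and 914 CPM in controls. Every copper sulfate larva was above every control, and 7 of the 10 bifenthrin larvae were too. Copper sulfate gave a log2 fold change of 1.25 ± 0.16 (edgeR adjusted p = 3.08e-06), and the larvae of lane 6 alone gave 1.19 and those of lane 7 alone 1.273. The direct difference between the chemicals, -0.36 ± 0.16 for bifenthrin against copper sulfate, did not pass the test (edgeR adjusted p = 0.0849).

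FMg009390 (entry Q8QGV5) was the other member whose copper sulfate larvae all exceeded the controls. These 2 members are 1.22% of the members, against 0.198% of all genes tested. FMg018326 is a member through exposed larvae, so the rule favoured its place in this count and the share is a description. FMg009390 had 831, 1110.4 and 1612 CPM with bifenthrin, 1544, 1729.7 and 2472 CPM with copper sulfate and 1035, 1409 and 1509.5 CPM in controls. For copper sulfate the log2 fold change was 0.46 ± 0.11 (edgeR adjusted p = 0.00561) and was not called in either lane alone, at 0.42 in lane 6 and 0.50 in lane 7. In bifenthrin larvae it was -0.16 ± 0.11 (edgeR adjusted p = 0.250). For 0 members did all copper sulfate larvae lie below the controls, against 0.0189% of all genes.

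FMg006849 (entry O42363) had the second largest rise with copper sulfate, and 1 control larva stood among the highest values. It had 1916, 2359 and 4544 CPM with bifenthrin, 2339, 3743 and 6148 CPM with copper sulfate and 1033, 1687 and 5692 CPM in controls. Control replicate 14 held the highest control value, the second highest control was 3317 CPM, and 1 copper sulfate larva exceeded control replicate 14. The log2 fold change was 0.83 ± 0.22 (edgeR adjusted p = 0.0215), and it was 0.57 in lane 7 alone, which was not called. This call was also lost with a replicate block in place of lane. FMg016824 (Q5XJ10) and FMg008230 rose by 0.69 ± 0.15 and 0.65 ± 0.10 (log2 fold change ± SE, edgeR adjusted p = 0.00392 and 5.97e-05), and neither was called in lane 7 alone, nor FMg016824 in lane 6 alone. FMg016824 averaged 8109 counts in controls and is likewise a member through exposed larvae.

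FMg000286 (entry Q6P3G5) was the 1 member that fell with copper sulfate. Its mean count was 9370 in copper sulfate larvae, under the limit, so it is a member through the other groups and its values are a description. It had 649, 816 and 1091 CPM with bifenthrin, 516, 629.6 and 869 CPM with copper sulfate and 701, 933 and 1273 CPM in controls, and 7 of the 11 copper sulfate larvae lay below every control. Against control the log2 fold change was -0.55 ± 0.11 (edgeR adjusted p = 0.00188), and -0.36 in lane 6 alone and -0.74 in lane 7 alone, where the first was not called. A second member was called lower when control replicate 1, or copper sulfate replicate 1, 2 or 13, was left out. The 20 members that rose took 4.25 ± 0.48% of all counts in copper sulfate larvae (SD over 11 larvae) and 3.05 ± 0.32% in controls (SD over 11 larvae).

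Among the 10 most counted members, FMg023450 (entry Q5TZ29) rose with copper sulfate. It had 4227, 5778 and 9330.0 CPM with bifenthrin, 4417, 5497 and 12562 CPM with copper sulfate and 3329, 4589.8 and 6398 CPM in controls. The copper sulfate values reached far up, with 5 of 11 above the highest control, while the medians of the groups lay closer. Its log2 fold change was 0.60 ± 0.17 (edgeR adjusted p = 0.0246). That call was lost in either lane alone, with the replicate block (0.50), without control replicate 11 (0.56) and without copper sulfate replicate 13 (0.52). With bifenthrin its log2 fold change was 0.39 ± 0.17 (edgeR adjusted p = 0.0685), which was not called here but was in 7 of 43 other settings, among them DESeq2 and lane 6 alone. FMg004109, with the same entry, had 2628, 4350.4 and 5197 CPM with bifenthrin, 1850.4, 4117 and 7045 CPM with copper sulfate and 1344, 2469.6 and 3367 CPM in controls. For it 9 of 11 copper sulfate larvae and 7 of 10 bifenthrin larvae exceeded the highest control, with log2 fold changes of 0.72 ± 0.17 for bifenthrin and 0.76 ± 0.17 for copper sulfate (edgeR adjusted p = 8.62e-04 and 0.00351). In lane 7 alone, neither of these was called. The table holds 8 models of this entry, and the other 6 had mean counts of at most 484.

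The chemicals were then compared with each other, since calls against shared controls do not show that 2 effects differ. For bifenthrin against copper sulfate 33 members were called, 9 higher and 24 lower in bifenthrin larvae, which is 20.1% of the members, against 32% of all genes tested, of which 3147 were higher and 3621 lower. Members chosen by controls alone gave 5 higher and 29 lower, lane 6 alone gave 6 calls and lane 7 alone 16. The median log2 fold change was -0.12 over the members and -0.02 over all genes. Against control, 44 members were called for bifenthrin alone and 14 for copper sulfate alone, which is 26.8% and 8.54% of the members, against 34.7% and 2.06% of all genes tested. The direct test called 19 of the 44 and 8 of the 14, or 43.2% and 57.1%, against 69.1% and 71.2% of the genes called in the same way over the whole table. Ranges were apart for 2 members, FMg007929 and FMg005811, both higher in bifenthrin larvae, which is 1.22% of the members, against 2.26% of all genes. Both averaged under 10000 counts in controls, and FMg005811 in copper sulfate larvae too, so the rule favoured this direction. For 0 members did all bifenthrin larvae lie below the copper sulfate larvae, against 1.48% of all genes.

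The largest differences between the chemicals were those of FMg007929 (1.71 ± 0.21, edgeR adjusted p = 8.47e-08), FMg007908 (1.33 ± 0.36, edgeR adjusted p = 0.00488) and FMg005811 (0.70 ± 0.088, edgeR adjusted p = 1.98e-07), as log2 fold changes ± SE with bifenthrin larvae higher. FMg007908 was not called in either lane alone. In copper sulfate larvae FMg007908 and FMg005811 averaged 6867 and 8989 counts, under the limit. FMg007929, FMg007908 and FMg005811 all averaged under 10000 counts in controls. The rule thus favoured higher values in bifenthrin larvae, and the values of these models are a description. Lower in bifenthrin larvae were FMg009390 (-0.63 ± 0.11, edgeR adjusted p = 3.43e-05) and FMg010855 (-0.61 ± 0.094, edgeR adjusted p = 5.47e-06). FMg010855 averaged 7252 counts in bifenthrin larvae, so the rule favoured this direction and its values are a description. The values of FMg009390 put most bifenthrin larvae below copper sulfate larvae, with 8 of 10 under the lowest of them. FMg006849 came next, at -0.59 ± 0.23 (edgeR adjusted p = 0.0496), but this call was lost in 31 of 43 other settings. Among the 10 most counted members, FMg006916 was higher (0.34 ± 0.089, edgeR adjusted p = 0.00364) and FMg012525 lower (-0.34 ± 0.11, edgeR adjusted p = 0.0204) in bifenthrin larvae than in copper sulfate larvae; the first was called in neither lane alone and the second not in lane 6 alone.

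Members that shared an annotation entry did not always move alike. The 3 models of entry Q7ZT36 took 3.802 ± 0.24% of all counts in bifenthrin larvae (SD over 10 larvae), 3.78 ± 0.38% in copper sulfate larvae (SD over 11 larvae) and 4.03 ± 0.31% in controls (SD over 11 larvae), and none of them was called against control. The 3 models of entry Q6IQX1 took 1.57 ± 0.19% in bifenthrin larvae (SD over 10 larvae), 1.29 ± 0.15% in copper sulfate larvae (SD over 11 larvae) and 1.21 ± 0.16% in controls (SD over 11 larvae). Each of them was called higher in bifenthrin larvae, with log2 fold changes of 0.48 for FMg006916, 0.39 for FMg006914 and 0.39 for FMg006913. Both members of entry A2BGX6, one of which lies in the same run of model numbers, were called higher too, FMg006915 by 0.41 ± 0.10 and FMg022428 by 0.49 ± 0.10 (log2 fold change ± SE, edgeR adjusted p = 0.00191 and 2.83e-04). In lane 7 alone FMg006914, FMg006913 and FMg006915 were not called. With copper sulfate, 0 of these 5 models were called, at log2 fold changes between 0.14 and 0.20. The direct test between the chemicals was passed by FMg006916 and FMg022428 of the 5.

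The pair that carried the combined entry A8WG05 and Q7ZVF9 went opposite ways in bifenthrin larvae. FMg003357 had 5198, 6521 and 8163 CPM with bifenthrin and 3742, 4519 and 5877 CPM in controls, and 8 of 10 bifenthrin larvae exceeded every control. FMg005413 had 800.0, 894 and 1142 CPM with bifenthrin and 1075, 1322 and 2315 CPM in controls, and 8 of 10 bifenthrin larvae lay below every control. The log2 fold changes were 0.54 ± 0.093 and -0.62 ± 0.12 (edgeR adjusted p = 1.75e-05 and 1.32e-04). Against copper sulfate larvae they were 0.36 ± 0.093 and -0.44 ± 0.12 (edgeR adjusted p = 0.00339 and 0.00548), and lane 6 alone called neither. Since both models list the same 2 accessions, reads shared between them would affect both values, and this was not tested. For entry Q7ZZW4, FMg017728 was called higher with copper sulfate (0.37 ± 0.084, edgeR adjusted p = 0.00474), and FMg015210 was not (0.070 ± 0.075, edgeR adjusted p = 0.691); no lane alone called FMg017728, and the difference between the members was not tested.

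The entries Q9I8V1, A0A0A0MTS7 and Q6P5L3 stood on 2 members each, and in bifenthrin larvae 1 of the 2 was called in each case. FMg010204 was called and FMg024444 was not (0.28 ± 0.18, edgeR adjusted p = 0.225). FMg014003 was called higher (0.28 ± 0.085, edgeR adjusted p = 0.00914) beside FMg017425 (0.23 ± 0.15, edgeR adjusted p = 0.241), and FMg014003 lost its call in each lane alone and with totals alone. FMg014913 was called lower (-0.16 ± 0.058, edgeR adjusted p = 0.0334), a call lost in 20 of 43 other settings, beside FMg002950 (-0.28 ± 0.12, edgeR adjusted p = 0.0667). In each pair both values had the same sign, and a p that misses the threshold does not show that the partner stayed level.

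Between larvae of 1 group, the median member varied less than the median gene tested. The coefficient of variation of TMM-scaled CPM had a median of 11.3% over the members with bifenthrin, 16.8% with copper sulfate and 17.16% in controls. Over all genes tested the medians were 17.6% with bifenthrin, 20.1% with copper sulfate and 19.9% in controls. Counting noise is larger for low genes and is part of these values, and models with a mean count of 1000 to 5000 had a median of 13.9% in controls, below that of the members. The most even members among controls were FMg025877 (6.89%), FMg001693 (7.33%), FMg016177 (7.84%), FMg015379 (8.88%) and FMg024036 (8.96%). FMg025877 (entry Q24JV1) had 835, 919.7 and 994 CPM with bifenthrin, 839, 959 and 1098 CPM with copper sulfate and 872, 993 and 1038 CPM in controls, all within a narrow band. The least even were FMg007908 (62.6%), FMg006849 (60.4%) and FMg019048 (53.4%).

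Within a single member the highest share over 32 larvae was at the median 1.98 times the lowest. The widest range belonged to FMg017002 (entry Q6P006), at 49.4 times. It had 633, 1299.8 and 1504 CPM with bifenthrin, 36.4, 626 and 1242 CPM with copper sulfate and 395, 1126 and 1744 CPM in controls. Copper sulfate replicate 5 held the low value, with 568 counts, and 4 larvae with copper sulfate were below every control. The highest of these 4 was below by a negligible margin, at 395.353 CPM against 395.37 CPM in the lowest control. The mean count of FMg017002 was 9249 in copper sulfate larvae, under the limit, so the rule favoured a fall there. The log2 fold change of -0.67 ± 0.34 for copper sulfate did not pass the test (edgeR adjusted p = 0.279), and neither did the 0.17 ± 0.34 for bifenthrin (edgeR adjusted p = 0.735).

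FMg021926, FMg019048 and FMg010339, 3 of the 6 members with no annotation, varied between larvae in step. They were singled out after their values were seen, so no test is given. FMg021926 had 1668, 3624 and 4597 CPM with bifenthrin, 589, 4117 and 7378 CPM with copper sulfate and 557, 4037 and 5612 CPM in controls. FMg019048 had 1147, 2572 and 3622 CPM with bifenthrin, 415, 3125 and 5667 CPM with copper sulfate and 338, 2928 and 4259 CPM in controls, and FMg010339 had 1078, 2217 and 2974 CPM with bifenthrin, 388, 2682 and 3770.5 CPM with copper sulfate and 397, 2696 and 3858 CPM in controls. Each thus covered a wide range within both the copper sulfate and the control group and a narrower one in bifenthrin larvae. Over the 32 larvae the highest CPM was 13.3 times the lowest for FMg021926, 16.8 times for FMg019048 and 9.95 times for FMg010339. By contrast the count of FMg019048 divided by that of FMg021926 moved by 1.408 times, between 0.607 and 0.855, and the count of FMg010339 divided by that of FMg021926 by 1.67 times, between 0.495 and 0.825. Together the 3 models took between 0.121% and 1.59% of all counts. The lowest shares were in copper sulfate replicate 2 and control replicate 14, at 0.122% and 0.121%, where the other members held 39.7% and 38.7% of all counts. Copper sulfate replicate 13 held the highest, at 1.59%, and there the other members held 37.4%, the third highest value of the 32 larvae. None of the 3 was called in any comparison, with log2 fold changes between -0.0091 and 0.17 against control.

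**Figure D5:**
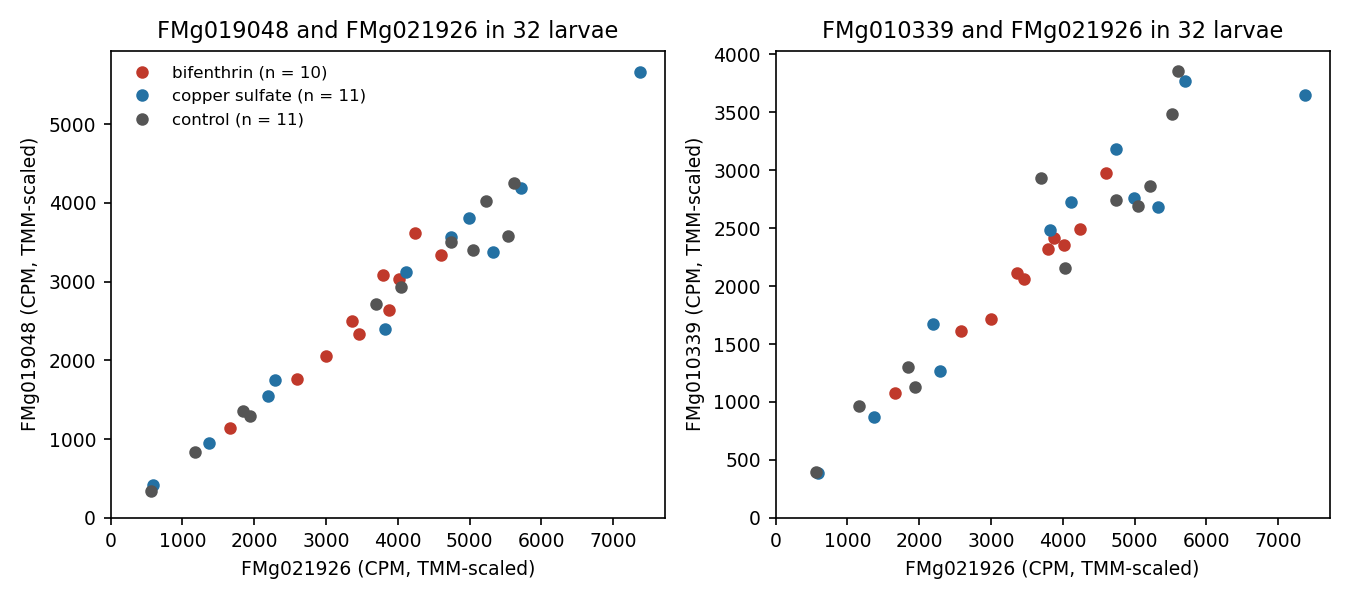
TMM-scaled CPM of FMg019048 (left) and FMg010339 (right) against that of FMg021926 in the 32 larvae, coloured by group, all axes from 0. The larvae of the 3 groups lie along 1 band from about 557 to 7378 CPM of FMg021926.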

How the data were processed

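Whole-body RNA of 32 single larvae was measured by RNA-seq. Per the labels' protocols, each library came from 250 ng of RNA and the Lexogen SENSE mRNA-Seq V2 kit. The authors deposited 1 table of raw counts, in whole numbers per gene model and larva, with no normalization. Tools named in the submitters' processing notes, without roles, were STAR, limma and bcl2fastq 2.19.1. For the genome build, annotation, counter and treatment of strand or shared reads, the sources used here give nothing. Columns were assigned to larvae by their description labels, and 0 columns were left without a larva. No GEO label says that larvae of a group came from separate beakers.

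Members were the models with a mean raw count of 10000 or more, and the members, lists and named models were chosen with earlier results of these data known. The low-count filter was filterByExpr (edgeR 4.0.16, R 4.3.3); 21174 genes passed, all 164 members among them, and 4976 did not, which hold 0.0846% of all counts. TMM set the scale, and group and lane were fitted over all 32 larvae. Contrasts used the quasi-likelihood F test with Benjamini-Hochberg adjustment over all genes tested, and an adjusted p under 0.05 was a call. The SE was the absolute log2 fold change divided by the square root of F. Named were the 10 most counted members, up to 5 called members per direction and chemical with the largest fold change, 3 per direction between chemicals, the 5 least and 3 most variable in controls, and the models at the edge of the rule. Models that share an entry, those with ranges apart, FMg017002 and the 3 models that varied in step were added after their values were seen.

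Totals of 10655113 to 17993699 counts gave every member at least 568 counts in each larva. The p-values measure the spread between these larvae, some of which shared a beaker. The closest of 496 pairs of larvae had a chi-square per degree of freedom of 11.6 between their counts. That is more than counting noise alone, so no library was another one counted again. Whether any 2 libraries came from the same larva was not tested. The fit was checked on counts simulated for 21174 genes. For bifenthrin against control it recovered 63.6% of the genes changed by 1.5-fold and 89.2% of those changed by 2-fold, with 5.14% of calls false. For copper sulfate against control the values were 68.6% and 89.1%, with 6.18% false. Fewer genes were changed there than were called in the data, and no lane or beaker effect was put in. These shares therefore need not hold for the data. Alternatives were RLE factors, totals alone, DESeq2 1.42.0, limma-voom (limma 3.58.1), no filter, no lane term, single lanes, only the groups compared, a replicate block, members by controls alone, each larva left out, and 3 larvae that stood apart left out, the last chosen after seeing the data. Sequences were not printed, since none were at hand for these models.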

Additional observations from a re-analysis of the deposited data

Results flagged for a closer look

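Of 43 sets of values over the 10 bifenthrin larvae that were examined for a larva far from the others, 1 was flagged, where chance flags about 1 set in 20. In bifenthrin replicate 13, FMg006849 (entry O42363) had 4544 CPM, the highest of its group, and the gap to the next larva was 0.661 of the whole range. The log2 fold change for bifenthrin against control was 0.24 ± 0.23 (SE, edgeR adjusted p = 0.428) with this larva and 0.10 (edgeR adjusted p = 0.763) without it. Groups of 11 larvae were not examined in this way.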

How the results depend on the processing

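In bifenthrin against control, 30 members were called in lane 6 alone (5 lower), 14 in lane 7 alone (7 higher and 7 lower) and 81 with totals alone (56 lower). In copper sulfate against control, 10 were called in lane 6 alone (10 higher and 0 lower), 2 in lane 7 alone (1 higher), 4 lower with totals alone, 2 lower with members by controls alone and 2 lower without the 3 larvae that stood apart (control replicate 14, copper sulfate replicates 2 and 5). In bifenthrin against copper sulfate, 6 were called in lane 6 alone (2 higher, 4 lower), 16 in lane 7 alone (5 higher, 11 lower) and 5 higher with members by controls alone. A single lane holds fewer larvae. Leaving out each of the 32 larvae in turn gave 40 to 57 calls for bifenthrin (23 to 29 higher, 15 to 29 lower), 16 to 25 for copper sulfate (15 to 24 higher, 1 to 2 lower) and 26 to 38 between the chemicals. Whether the replicate numbers pair the larvae was not settled, since correlations near 0 cannot exclude shared handling. Same-numbered larvae of different groups had a mean correlation of -0.0022 over 30 pairs, 6 of them over 0.1. Larvae with different numbers in the same lane had 0.00050 over 140 pairs, 27 of them over 0.1. Of 30 larvae, 8 correlated best with their own number. With the replicate block in place of lane, 42 members were called for bifenthrin, 14 for copper sulfate (13 higher, 1 lower) and 29 between the chemicals. With the most abundant member left out of both the members and the total, the summed share in bifenthrin larvae was 34.3%. Signs turned for values that had not passed the test. FMg003659 stood at -0.026 in lane 7 and -0.019 with totals alone for bifenthrin, and at -0.016 with totals alone for copper sulfate. FMg014930 stood at -0.058 in lane 7 and -0.038 with totals alone for bifenthrin, and at -0.037 with totals alone and -0.0032 without the 3 larvae for copper sulfate; leaving out single larvae gave -0.0040 to 0.073 for bifenthrin and -0.0080 to 0.082 for copper sulfate. FMg007908 stood at 0.14 for copper sulfate in lane 6, and for bifenthrin in lane 7 FMg006849 stood at -0.27 and FMg021716 at -0.048. The cause was not tested. Of the other values of named members, 767 kept direction and call, 66 lost the call and 15 gained one, besides those from leaving out single larvae, where the numbers were 2432, 42 and 19. Depth limits little here, since members had at least 568 counts in each larva.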
